A study of Mus musculus with 16 samples.

Results

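The comparison described here is the dependence of the Neurog3 loss effect on the gut region: for every gene, the change from control to mutant mice in the ileum was set against the same change in the duodenum. RNA of both tissues came from 8 adult male C57BL/6N mice kept on a high fat diet and sampled 5 weeks after tamoxifen. The 4 mutant mice (M136, M167, M168 and M177, after their numbers in the labels; Neurog3f/f; Villin-CreERT2) carried floxed Neurog3 alleles and a Cre recombinase that tamoxifen activates and that the Villin promoter directs to the intestinal epithelium. The 4 control mice (C133, C134, C151 and C154; Neurog3f/f) carried the same floxed alleles and no Cre, so an effect of the recombinase itself cannot be told apart from that of Neurog3 loss. All 16 libraries of the series entered the comparison, 4 per genotype and tissue, and 19289 genes passed the filter on low counts and were tested.

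Neurog3 encodes the transcription factor that commits secretory progenitors of the intestinal crypt to the enteroendocrine fate. Enteroendocrine cells are scattered through the epithelium and release peptide hormones and serotonin in response to food, and their repertoire changes along the gut: GIP, cholecystokinin and secretin are typical of the duodenum, and GLP-1, peptide YY and neurotensin of the ileum. The tissues also differ in their other tasks, since the duodenum receives pancreatic juice and bile, while the ileum reclaims bile acids and holds more lymphoid tissue and Paneth cells. In tissue RNA, fewer cells of a type and less RNA per cell cannot be told apart.

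Sequencing depth was 40.9 to 67.2 M counts per library. Exocrine pancreas transcripts differed between libraries: summed over 18 listed genes they stood at 74.8 to 35290 CPM (counts scaled to the library size) in control duodenum, at 10080 to 223800 CPM in mutant duodenum, with mice M167 and M177 highest, and at 102.7 to 3290 CPM in the ileum. Control mice C134 and C154 held the most lymphoid follicle transcripts in the ileum (156.3 and 180 CPM, against 45.31 and 46.57 CPM in mice C133 and C151). Results were therefore also computed without each of these pairs of mice and with the exocrine transcripts as a covariate.

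Neurog3 itself matched the genotype labels in every library. In control duodenum it stood at 2.43, 2.57, 2.58 and 2.78 CPM, and in control ileum at 0.56, 0.95, 1.02 and 1.03 CPM. A single read was counted over the 4 mutant duodenum libraries (549 in controls, a 459-fold difference with a 95% counting interval of 82.1 to 18200), and a single read over the 4 mutant ileum libraries (201 in controls, 223-fold, 39.5 to 8840). The fold of this gene between the tissues could not be resolved at this depth (interaction difference 1.22, 95% interval -4.02 to 6.46, adjusted p = 0.75).

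A genotype by tissue interaction was called for 4027 genes, 20.9% of those tested (edgeR quasi-likelihood test with the mouse as a block, Benjamini-Hochberg adjusted p under 0.05). The interaction difference is the log2 fold change, mutant against control, in the ileum minus that in the duodenum. It was positive for 2090 genes (10.8%) and negative for 1937 (10.0%), with a median of -0.05 over all genes tested, and 1330 of the called genes had a difference of at least 2-fold, 254 of them positive and 1076 negative. For 3447 of the 4027 genes the ileum-minus-duodenum differences of the 4 control mice did not overlap those of the 4 mutant mice, as was the case for 24.8% of all genes tested.

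More genes were called in the ileum than in the duodenum. Fitted on its own, the ileum had 3474 genes higher (19.0%) and 2672 lower (14.6%) in mutants, and the duodenum 606 higher (3.44%) and 900 lower (5.11%). The precision was alike, with a median standard error of 0.16 in the ileum and 0.17 in the duodenum on the log2 scale. Of the 4027 genes, 2295 (11.9% of those tested) were called in the ileum only, 1401 of them higher and 894 lower in mutants. Another 293 (1.52%) were called in the duodenum only, 139 of them higher and the others lower. The same direction was called in both tissues for 157 genes, with the larger change in the duodenum for 23 of them and in the ileum for the others. Opposite directions were called for 28 genes (0.145%), 18 of which rose in the ileum and fell in the duodenum.

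A further 1254 genes passed the interaction test without a call in either tissue, and 1117 of the 1184 that were tested in both had estimates of opposite sign. Conversely, a call in a single tissue was often not a tissue difference: 298 of the 585 genes called in the duodenum alone, and 2858 of the 5124 called in the ileum alone, had no interaction call. Among the 881 genes called in both tissues, 853 moved in the same direction and 696 had no interaction call.

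**Figure D1:**
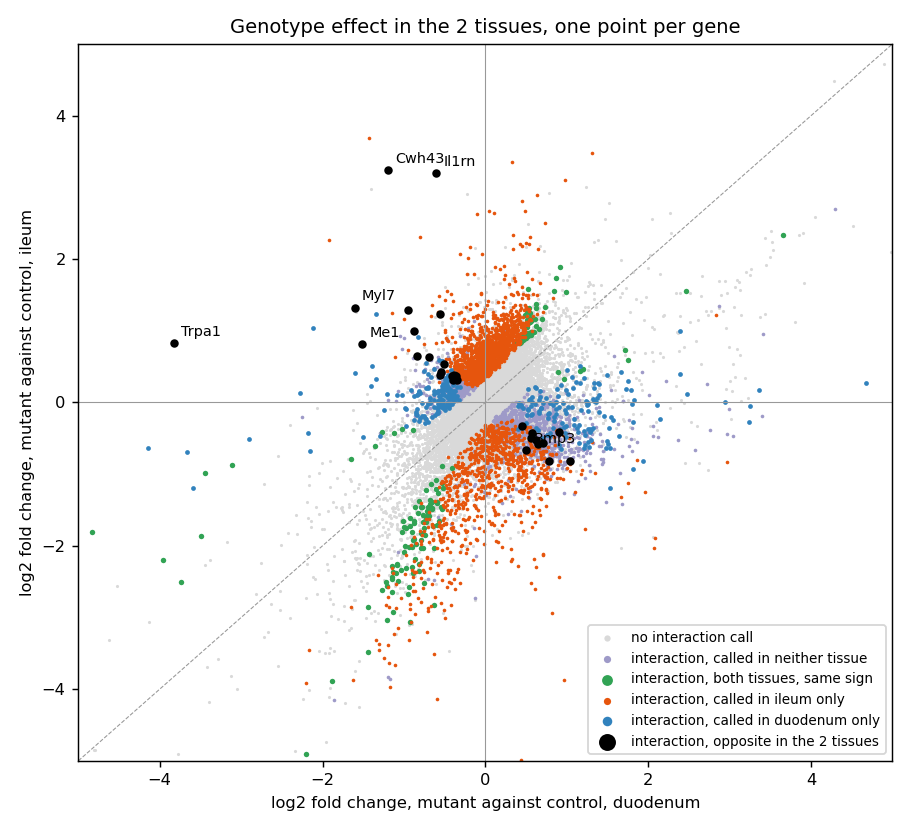
Log2 fold change, mutant against control, in the duodenum (x axis) and in the ileum (y axis), 1 point per gene tested in both tissues (17106 genes, of which 32 lie outside the plotted range of 5 in either direction). Points on the dashed line have equal fold changes; the orange points, called in the ileum only, spread vertically around a duodenum value of 0, and the 28 black points lie in the upper left and lower right parts.

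These counts depended on the mice. Leaving out mouse C133, C134 or C151 lowered the positive calls to 1328, 1314 and 1055, and leaving out mouse C133, C151, C154, M136 or M167 lowered the negative ones to 1091, 1030, 1236, 1200 and 1241. The ileum-only class fell to 1474, 1278, 1514 and 1297 without mouse C133, C151, C154 or M136. The duodenum-only class ranged from 65 to 643 and the opposite class from 4 to 50: both were smaller without mouse C133, C134, C151, C154, M167 or M177 and larger without mouse M168, while without mouse M136 they held 376 and 22 genes. Duodenum calls moved with the same mice, from 124 to 1025 higher and 352 to 1114 lower (both fewer without mouse C133, C134, C151, C154, M167 or M177, and the higher ones more without mouse M136, 1025, or M168, 916). Without the mouse block 938 positive and 796 negative interactions were called, and 1707 of these 1734 genes were called with the block too. With the exocrine transcripts as a covariate, 251 positive and 198 negative interactions were called, and 417 of these 449 genes were among the 4027. Of 176 genes with an interaction call that the naming rule selected, 111 lost it with this covariate. The covariate itself differed by genotype in the duodenum, with exocrine sums of 74.8 to 35290 CPM in controls and 10080 to 223800 CPM in mutants, so covariate and genotype cannot be fully told apart. No gene called in both fits changed sign under any of these alternatives. Calls in fits of the same or mostly the same libraries leave little room for a change, so no robustness is read from this.

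Transcript length moved with the direction of the interaction. Among 15096 genes at 1 CPM or more in a group, split into sixths by their longest annotated transcript, the median interaction difference ran from 0.17 in the shortest sixth to -0.16 in the longest. Positive calls made up 19.9% of the shortest sixth and 4.25% of the longest, and negative calls 7.67% and 19.7%. The part of length in the results below was not tested.

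The enteroendocrine genes showed first where the tissues differed in degree. Most hormone transcripts fell in both tissues: 9 of 13 listed hormone and serotonin genes fell in the duodenum and 11 of 12 tested fell in the ileum, and 3 had a positive and 2 a negative interaction. Cck, which encodes cholecystokinin, was 3000-fold lower in mutant duodenum (10748 against 3 counts, 95% counting interval 1030 to 14500) and 233-fold lower in mutant ileum (840 against 4 counts, 90.5 to 856). Gip went from 16067 to 16 counts in the duodenum (840-fold, 517 to 1470) and from 946 to 0 in the ileum (at least 349-fold lower, against a floor of 3 counts over the group). Nts, the neurotensin gene, went from 1043 to 2 counts (436-fold, 120 to 3610) and from 9943 to 2 counts (5510-fold, 1520 to 45500). None of these 3 genes had an interaction call, though Cck had one without mouse M136, with limma-voom and with DESeq2, and Nts with DESeq2.

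Peptide YY, a hormone of distal enteroendocrine cells, was the hormone gene with the smallest interaction p. Pyy stood at 0.56, 1.05, 1.88 and 2.52 CPM in control duodenum and at 0, 0.47, 0.54 and 0.97 CPM in mutant duodenum, so that the groups overlapped. In the ileum the control libraries held 12.6, 17.9, 20.2 and 26.6 CPM and the mutant libraries 0, 0, 0.03 and 0.04 CPM, with no overlap. Its log2 fold change was -1.61 in the duodenum (95% interval -3.56 to 0.34, adjusted p = 0.24), and its counts in the ileum differed 1230-fold (4431 against 4 counts, 479 to 4510). The interaction difference was -8.51 ± 0.69 (SE, adjusted p = 0.00048).

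Iapp, the amylin gene, was also lower in the ileum alone. Duodenum libraries held 0.90, 1.07, 1.21 and 1.28 CPM in controls and 0.02, 1.25, 1.46 and 3.32 CPM in mutants, and ileum libraries 0.20, 0.31, 0.40 and 0.42 CPM and 0, 0, 0 and 0.04 CPM. The ileum groups did not overlap, and controls were 39.9-fold above mutants (72 against 2 counts, 10.6 to 336). The duodenum groups overlapped, with 237 counts in controls and 244 in mutants. Controls there were at 0.813 of the mutant level (0.677 to 0.976, counting error only, which leaves out the spread between mice). Its interaction difference was -5.41 ± 0.71 (adjusted p = 0.0013), a call lost with limma-voom. Both peptides are also made in pancreatic islets, whose 9 listed transcripts summed to 20.2 to 96.3 CPM in control duodenum, 33.8 to 91.7 CPM in mutant duodenum and 0.53 to 3.50 CPM in the ileum; their part in the duodenum values was not tested. Gcg, the proglucagon gene that yields GLP-1 in the gut and glucagon in islets, was 28.1-fold lower in mutant duodenum (4900 against 146 counts, 23.8 to 33.3) and 512-fold lower in mutant ileum (10176 against 22 counts, 338 to 818). The mutant duodenum libraries held 0, 0.12, 0.17 and 3.69 CPM, the highest in mouse M177, and the interaction difference of -3.86 ± 1.36 did not pass the test (adjusted p = 0.091).

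The genes Tac1, Sct and Sst fell in both tissues and fell further in the duodenum. Tac1 encodes substance P, a peptide of enterochromaffin cells and of enteric neurons. It went from 3.14, 4.07, 4.39 and 4.80 CPM to 0.28, 0.30, 0.33 and 0.56 CPM in the duodenum, and from 2.90, 4.27, 4.92 and 4.98 CPM to 1.45, 2.18, 2.25 and 2.53 CPM in the ileum. The groups did not overlap in either tissue, the log2 fold changes were -3.45 ± 0.27 and -0.98 ± 0.23, and the interaction difference was 2.45 ± 0.29 (adjusted p = 0.00089). Sct, the secretin gene, had log2 fold changes of -3.50 ± 0.20 and -1.86 ± 0.15 (difference 1.66 ± 0.22, adjusted p = 0.0014), and mutant libraries kept 1.64 to 2.83 CPM in the duodenum and 4.09 to 4.95 CPM in the ileum. Somatostatin, Sst, named here after its values were seen, kept 3.38 to 5.52 CPM in mutant duodenum and 3.39 to 3.73 CPM in mutant ileum (difference 1.22 ± 0.18, adjusted p = 0.0016).

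Among 15 enteroendocrine transcription factor genes, 12 fell in the duodenum and 12 of 14 tested fell in the ileum. Nkx2-2, a regulator of enteroendocrine subtypes, stood at 1.48, 1.80, 1.83 and 1.96 CPM in control and at 0.14, 0.29, 0.44 and 0.66 CPM in mutant duodenum. In the ileum it went from 0.56, 0.61, 0.69 and 0.90 CPM to 0.01, 0.02, 0.02 and 0.03 CPM. The Nkx2-2 interaction difference was -2.69 ± 0.58 (adjusted p = 0.009). This call was lost when exocrine transcripts entered as a covariate, and when mutant mice M167 and M177 were left out. The part of pancreas transcripts in its duodenum values was not tested. Lmx1a, a factor of enterochromaffin cells, was at 0 in the 4 mutant duodenum libraries (525 control counts, at least 146-fold lower) and kept 7 counts against 265 in the ileum (41.9-fold, 20.1 to 105). Its interaction difference of 4.59 (adjusted p = 0.036) rests on these few mutant reads. The call was lost in 11 of 18 alternatives, among them those without the mouse block, with limma-voom, with DESeq2, without either pair of mice and with the exocrine covariate.

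The nutrient receptors of enteroendocrine cells held a change of direction, with 3 positive and 1 negative interaction among 10 tested. Trpa1 encodes an irritant-sensing cation channel of enterochromaffin cells and sensory nerves. It was at 10.9, 12.8, 13.7 and 15.9 CPM in control duodenum and at 0.38, 0.54, 0.80 and 2.08 CPM in mutant duodenum. In the ileum controls had 1.45, 2.17, 2.30 and 2.38 CPM and mutants 2.56, 3.36, 3.66 and 4.76 CPM, so the groups were apart in both tissues and in opposite order. The log2 fold changes were -3.83 ± 0.48 (adjusted p = 0.0047) and 0.82 ± 0.23 (adjusted p = 0.019), and the interaction difference 4.77 ± 0.54 (adjusted p = 0.0016).

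Free fatty acid receptors differed from each other in the sign of the interaction. Ffar1, a receptor for long-chain fatty acids on hormone cells, was 20.7-fold lower in mutant duodenum (248 against 10 counts, 11.1 to 43.8) and 147-fold lower in mutant ileum (662 against 5 counts, 62.5 to 453). Its interaction difference was -2.82 ± 0.71 (adjusted p = 0.017). This call was lost without mouse M177, without either pair of mice and with the exocrine covariate. Ffar4, another receptor for long-chain fatty acids, stood at 1.78, 1.84, 2.01 and 2.02 CPM in control and 0.91, 1.04, 1.25 and 1.78 CPM in mutant duodenum (log2 fold change -0.60, 95% interval -1.11 to -0.09, adjusted p = 0.12). It rose in the ileum from 3.48, 4.33, 4.62 and 4.90 CPM to 5.87, 6.83, 8.37 and 9.13 CPM (0.83 ± 0.17), with an interaction difference of 1.43 ± 0.28 (adjusted p = 0.0056).

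Cwh43 and Il1rn led the opposite class by their interaction p. Cwh43 encodes a membrane protein that acts on the lipid part of membrane anchors. It fell in the duodenum from 1.18, 1.46, 1.66 and 2.004 CPM to 0.42, 0.61, 0.78 and 0.91 CPM, and rose in the ileum from 0.55, 0.61, 0.61 and 0.79 CPM to 4.23, 4.29, 7.04 and 8.29 CPM. No library crossed to the other genotype in either tissue. Log2 fold changes of -1.20 ± 0.28 (adjusted p = 0.028) and 3.24 ± 0.27 (adjusted p = 3.6e-05) gave an interaction difference of 4.41 ± 0.27 (adjusted p = 9.2e-06).

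Il1rn encodes the interleukin 1 receptor antagonist, a secreted inhibitor of interleukin 1 signalling. Control and mutant duodenum held 4.64, 5.15, 5.56 and 6.38 CPM and 3.08, 3.44, 3.65 and 3.99 CPM. Control ileum was at a similar level, with 4.61, 4.75, 5.47 and 6.58 CPM, and mutant ileum held 32.7, 35.5, 39.8 and 83.1 CPM, the highest in mouse M167. The transcript fell in the duodenum (-0.60 ± 0.16, adjusted p = 0.042) and rose in the ileum (3.19 ± 0.34, adjusted p = 0.00029), and the interaction difference was 3.68 ± 0.24 (adjusted p = 1.6e-05).

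Me1 and Myl7 followed the same direction. Me1, the cytosolic malic enzyme that supplies NADPH for fatty acid synthesis, went from 103, 121, 130 and 152 CPM to 21.9, 33.5, 44.9 and 75.8 CPM in the duodenum, and from 21.83, 21.95, 23.0 and 43.2 CPM to 35.7, 46.9, 46.9 and 60.1 CPM in the ileum. The duodenum groups were apart, while control mouse C134 overlapped the mutants in the ileum. Its log2 fold changes were -1.51 ± 0.35 and 0.81 ± 0.25, its interaction difference 2.48 ± 0.34 (adjusted p = 0.0036). Myl7, a myosin light chain gene best known from the heart, fell from 2.65 to 4.01 CPM in control to 0.50 to 1.52 CPM in mutant duodenum and rose from 0.97 to 2.52 CPM to 3.28 to 5.88 CPM in the ileum (difference 3.0 ± 0.40, adjusted p = 0.0014).

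Others of the 18 genes with this order were Serpinf2, the plasmin inhibitor gene (2.2 ± 0.26), Pik3r3, a regulatory subunit of phosphoinositide 3-kinase (1.48 ± 0.18), Urah, an enzyme of urate breakdown (1.77 ± 0.27), and Vasp, an actin regulator (0.95 ± 0.14). Their adjusted interaction p-values were 0.00089, 0.00089, 0.0021 and 0.0016.

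The reverse order, higher in mutant duodenum and lower in mutant ileum, was called for 10 genes. Bmp3, which encodes a secreted factor of the bone morphogenetic protein family, rose in the duodenum from 45.3, 47.0, 47.4 and 57.5 CPM to 55.6, 66.4, 74.0 and 80.4 CPM and fell in the ileum from 99.0, 108, 143 and 144 CPM to 50.6, 74.6, 81.0 and 96.8 CPM. A single pair of duodenum libraries overlapped and the ileum groups were apart, and the interaction difference was -1.20 ± 0.15 (adjusted p = 0.001). Aldh1l1, a folate enzyme, had 78.5 to 114 CPM in control and 148 to 170 CPM in mutant duodenum, against 89.3 to 97.8 CPM and 46.7 to 76.6 CPM in the ileum (-1.27 ± 0.19, adjusted p = 0.0023). Fzd4, a Wnt receptor (-0.80 ± 0.12, adjusted p = 0.0017), and Tmod2, an actin-capping protein (-1.0 ± 0.16, adjusted p = 0.0022), showed smaller changes of the same kind.

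The estimates of the 28 genes kept their opposite signs in all 17 alternatives with tissue fits, which shared most or all libraries with the main fits. However, 0 of the 28 passed all 3 tests in every alternative. Without control mice C134 and C154 no gene passed all 3, and without mutant mice M167 and M177 there were 3. Adjusted p-values of the 28 duodenum calls lay between 0.0047 (Trpa1) and 0.049 (Vasp).

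**Figure D2:**
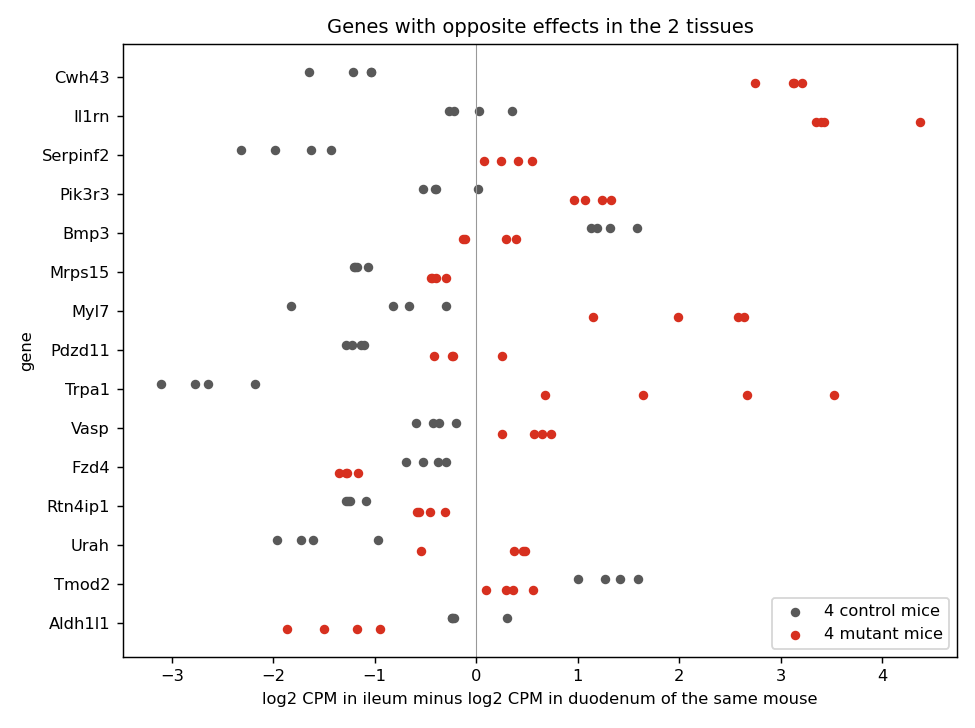
Log2 CPM in the ileum minus log2 CPM in the duodenum of the same mouse (x axis) for the 15 genes of the opposite class with the smallest interaction p (y axis), 1 point per mouse, grey for the 4 controls and red for the 4 mutants. The control and mutant points of each gene do not overlap; those of Cwh43 lie between -1.65 and -1.04 in controls and between 2.75 and 3.21 in mutants.

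Genes that rose in the ileum alone included enzymes of electron supply, detoxification and lipid handling. Por, cytochrome P450 oxidoreductase, passes electrons to the microsomal cytochromes P450. Its level was 365, 457, 483 and 554 CPM in control and 323, 325, 545 and 575 CPM in mutant duodenum, which overlapped, and 105 to 176 CPM in control and 252, 283, 449 and 487 CPM in mutant ileum, which did not. The log2 fold change was -0.06 in the duodenum (95% interval -0.54 to 0.42) and 1.51 ± 0.25 in the ileum, and the interaction difference 1.56 ± 0.13 (adjusted p = 8e-05).

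Gsta1, a glutathione transferase whose reads may be shared with close paralogs, was 47.7 to 83.0 CPM in control and 47.0 to 88.5 CPM in mutant duodenum. In the ileum it rose from 1.35, 1.74, 2.68 and 4.26 CPM to 7.53, 14.03, 17.8 and 22.3 CPM, still below every duodenum library. The effect was 0.11 in the duodenum (95% interval -0.40 to 0.62) and 2.64 ± 0.43 in the ileum, with an interaction difference of 2.53 ± 0.20 (adjusted p = 8e-05). Akr1c13, an aldo-keto reductase that reduces steroids and xenobiotics, was likewise lower in control ileum (20.4 to 37.1 CPM) than in control duodenum (111 to 260 CPM), and mutant ileum held 53.5 to 93.6 CPM (interaction difference 1.47 ± 0.17, adjusted p = 0.00089).

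Sae1 encodes a subunit of the enzyme that activates the protein modifier SUMO. Control ileum held 22.01, 22.28, 23.0 and 23.9 CPM and mutant ileum 36.7, 41.5, 42.1 and 47.3 CPM, whereas control duodenum held 52.9 to 58.0 CPM and mutant duodenum 30.4, 44.2, 44.3 and 46.2 CPM. All 8 mutant libraries thus lay between the levels of the control ileum and the control duodenum, with mouse M167 the lowest in the duodenum. The ileum rise was 0.91 ± 0.09, the duodenum estimate -0.41 (95% interval -0.68 to -0.13, adjusted p = 0.066) and the interaction difference 1.31 ± 0.12 (adjusted p = 0.00012). Pafah2, which hydrolyses oxidised phospholipids, also had its mutant libraries between those of the control tissues: 85.3 to 90.0, 56.5 to 83.6, 32.7 to 37.0 and 46.0 to 62.3 CPM for Pafah2 in control duodenum, mutant duodenum, control ileum and mutant ileum (interaction difference 0.93 ± 0.10, adjusted p = 0.00089).

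Genes called lower in the ileum alone were led by Tgfbi, which encodes a secreted matrix protein induced by transforming growth factor beta. Control duodenum had 190, 258, 270 and 291 CPM and mutant duodenum 239, 250, 266 and 291 CPM. In the ileum it fell from 332, 441, 486 and 498 CPM to 125, 126, 126 and 152 CPM, with no overlap. The duodenum estimate was 0.07 (95% interval -0.25 to 0.38), the ileum fold change -1.70 ± 0.14 and the interaction difference -1.78 ± 0.13 (adjusted p = 3e-05).

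Prlr, the prolactin receptor, and Abca1, which exports cholesterol to lipoproteins, followed. Prlr stood at 293, 317, 326 and 333 CPM in control and at 121, 121, 122 and 148 CPM in mutant ileum, a fall of -1.28 ± 0.10. The duodenum groups were apart in the same direction, at 361 to 420 CPM in controls and 301 to 331 CPM in mutants, a smaller difference without a call (-0.27, 95% interval -0.50 to -0.03, adjusted p = 0.13). The interaction difference was -1.03 ± 0.12 (adjusted p = 0.00089). Abca1 stood at 106, 129, 137 and 225 CPM in control and 42.1, 57.2, 71.9 and 72.5 CPM in mutant ileum. Its duodenum groups overlapped at 35.3 to 60.5 and 39.6 to 65.6 CPM (0.00, 95% interval -0.45 to 0.46), and the interaction difference was -1.25 ± 0.15 (adjusted p = 0.00089).

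Retreg1, a receptor for the turnover of endoplasmic reticulum, fell in the ileum from 53.2 to 63.9 CPM to 32.4 to 40.8 CPM while its duodenum estimate was 0.61 (95% interval 0.23 to 0.99, adjusted p = 0.051), with an interaction difference of -1.27 ± 0.15 (adjusted p = 0.00089). Cytip, a leukocyte adhesion regulator, was 23.8 to 38.2 CPM in control and 5.13 to 10.6 CPM in mutant ileum, against 32.6 to 46.3 and 15.96 to 37.8 CPM in the duodenum (-1.49 ± 0.17, adjusted p = 0.00089).

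**Figure D3:**
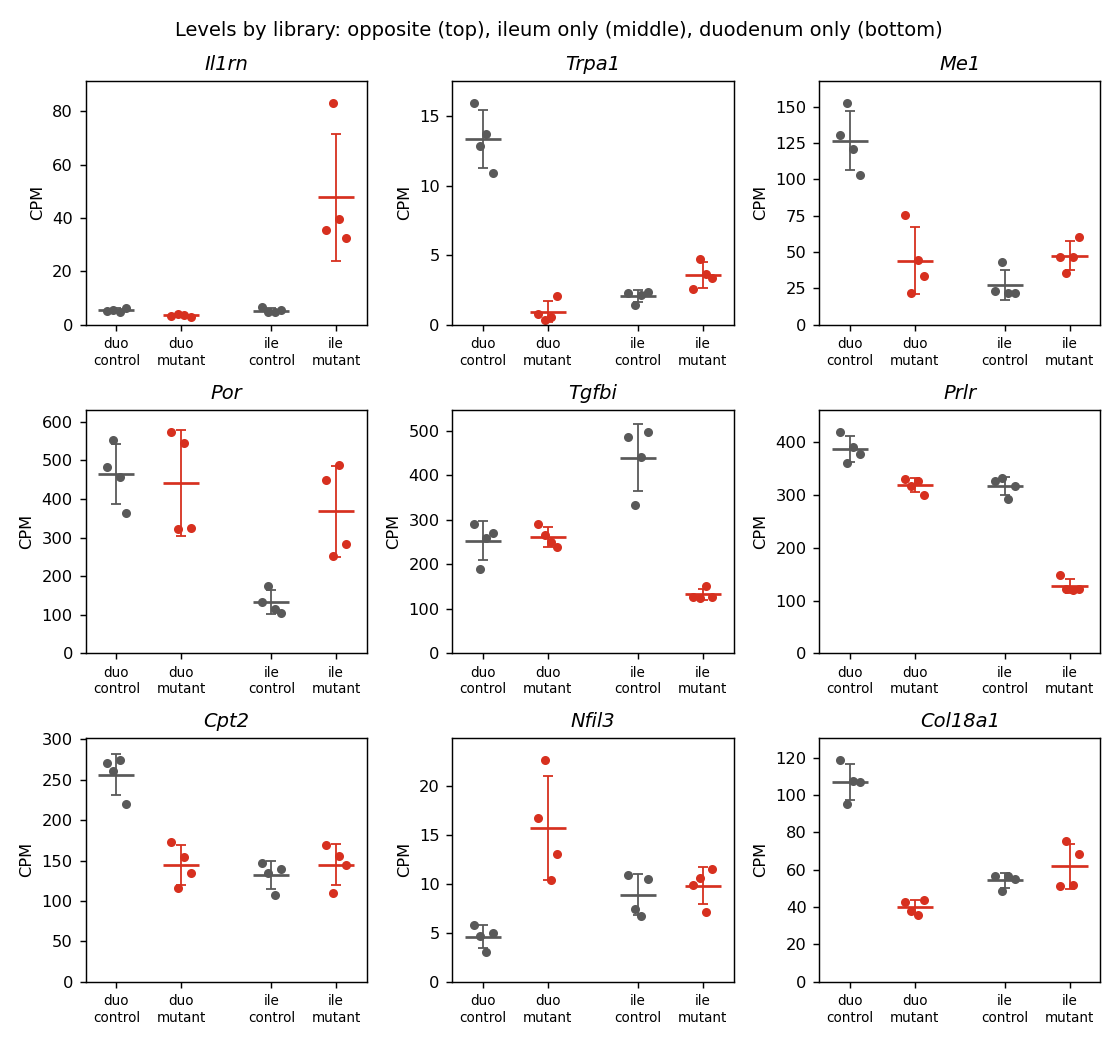
CPM (y axis, from 0) of 9 genes in the 4 groups of 4 libraries (x axis), with points for libraries, a horizontal line for the group mean and bars for 1 SD. Il1rn, Trpa1 and Me1 were called in opposite directions in the tissues, Por, Tgfbi and Prlr in the ileum only, and Cpt2, Nfil3 and Col18a1 in the duodenum only. Mouse M167 is the Il1rn point at 83.1 CPM.

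Duodenum-only effects were led by Col18a1, which encodes a basement membrane collagen. It fell in the duodenum from 95.2, 107, 107 and 119 CPM to 35.7, 37.7, 42.5 and 43.8 CPM (-1.41 ± 0.11, adjusted p = 7.1e-05). In the ileum 48.5, 55.2, 56.5 and 56.8 CPM in controls stood against 51.5, 52.0, 68.5 and 75.2 CPM in mutants (0.22, 95% interval -0.07 to 0.51). This gave an interaction difference of 1.59 ± 0.14 (adjusted p = 0.00012).

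Further duodenum-only falls were those of Coq4, a factor of ubiquinone synthesis (interaction difference 1.19 ± 0.15, adjusted p = 0.0012), Celf5, an RNA-binding protein gene (1.94 ± 0.25, adjusted p = 0.0013), and Stk16, a membrane-bound kinase (0.73 ± 0.10, adjusted p = 0.0014). Duodenum-only rises included Igf1r, the receptor for insulin-like growth factor 1. It went from 24.6, 29.9, 31.9 and 32.0 CPM to 36.4, 41.4, 61.8 and 74.0 CPM in the duodenum (0.87 ± 0.22), with no overlap, and stood at 75.2 to 98.5 CPM in control and 63.9 to 94.4 CPM in mutant ileum (-0.17, 95% interval -0.47 to 0.13). The interaction difference was -1.01 ± 0.14 (adjusted p = 0.0014). Insr, the insulin receptor, was lower in mutant ileum (-0.64 ± 0.10), with a duodenum estimate of 0.21 (95% interval -0.16 to 0.57) and an interaction difference of -0.85 ± 0.17 (adjusted p = 0.0062). Of 15 hormone receptor genes tested, 4 had a negative and 0 a positive interaction; without the mouse block 2 were negative.

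The gene lists showed which functions shared a direction. Each list is described by its members' calls and median, beside a median of 0.02 in the duodenum, -0.03 in the ileum and -0.05 for the interaction over all genes. The shares of all tested genes to read the counts against are 10.8% positive and 10.0% negative interactions, 3.44% higher and 5.11% lower in the duodenum, and 19.0% higher and 14.6% lower in the ileum.

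Proliferation genes rose mainly in the ileum. All 20 listed genes of DNA replication and mitosis rose in mutant ileum and 2 rose in the duodenum, with median log2 fold changes of 0.99 and 0.26, and 17 had a positive interaction (median 0.71). Their summed level was 867 to 1005 CPM in control and 1396 to 1771 CPM in mutant ileum, and 952 to 1101 and 1177 to 1626 CPM in the duodenum, so that neither tissue's groups overlapped. Leaving out mouse C134 or M167 left 11 of the 17 calls, leaving out both control mice C134 and C154 left 5, and the exocrine covariate left 2.

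Ccnb2 encodes cyclin B2, which drives entry into mitosis. It was at 19.4, 20.9, 24.2 and 24.5 CPM in control and 19.4, 26.8, 27.9 and 28.5 CPM in mutant duodenum (0.22, 95% interval -0.08 to 0.52), and rose in the ileum from 13.8, 14.1, 16.4 and 16.6 CPM to 36.2, 37.0, 38.9 and 46.1 CPM (1.41 ± 0.12). This gave an interaction difference of 1.18 ± 0.15 (adjusted p = 0.0013). Mcm3, a subunit of the replicative helicase, rose in the ileum from 21.9, 22.7, 23.3 and 23.9 CPM to 42.4, 48.0, 48.8 and 49.8 CPM (1.07 ± 0.09), and overlapped in the duodenum at 27.3 to 32.6 and 28.7 to 48.7 CPM (0.37, 95% interval 0.02 to 0.72, adjusted p = 0.15). Its interaction difference was 0.71 ± 0.15 (adjusted p = 0.0088). Birc5, an inhibitor of apoptosis that acts in mitosis (1.24 ± 0.21, adjusted p = 0.0034), and Plk1, a mitotic kinase (0.96 ± 0.20, adjusted p = 0.0075), had the same pattern. The calls of Mcm3, Birc5 and Plk1 were lost with the exocrine covariate, and that of Plk1 also without control mice C134 and C154.

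Promoters of cell cycle genes often hold CCAAT boxes, the binding motif of the factor NF-Y, and the cell cycle homology region, which reads TTTGAA. A form of this region that reads TTCGAA was searched as well. In the 250 bases before the RefSeq start (GRCm38.p6), with both strands searched, so that a box on the other strand reads ATTGG, the CCAAT box was found in 16 of the 17 proliferation genes with a promoter in the table (94.1%) and in 39.7% of 12655 tested genes. The cell cycle homology region was found in 7 of the 17 (41.2%), against 15.3% of all. The promoters of Ccnb2 (chr9:70421555-70421804, minus strand) and Mcm3 (chr1:20820313-20820562, minus strand) are shown because these genes stand for mitosis and for DNA replication in the list; capitals mark the matches.
Ccnb2: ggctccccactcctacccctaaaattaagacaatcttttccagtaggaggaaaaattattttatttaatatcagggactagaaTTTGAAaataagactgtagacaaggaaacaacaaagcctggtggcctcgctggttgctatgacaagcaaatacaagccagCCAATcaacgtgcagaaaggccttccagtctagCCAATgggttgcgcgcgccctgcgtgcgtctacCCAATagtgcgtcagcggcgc
Mcm3: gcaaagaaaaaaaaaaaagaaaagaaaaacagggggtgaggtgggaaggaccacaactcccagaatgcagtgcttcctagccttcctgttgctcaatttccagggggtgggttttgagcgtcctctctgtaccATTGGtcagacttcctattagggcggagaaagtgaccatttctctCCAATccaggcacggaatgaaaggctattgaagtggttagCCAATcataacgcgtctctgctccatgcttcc
The Ccnb2 promoter holds 3 CCAAT boxes and 1 cell cycle homology region, the Mcm3 promoter 3 CCAAT boxes. A match describes the letters and is no measurement of binding.

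**Figure D4:**
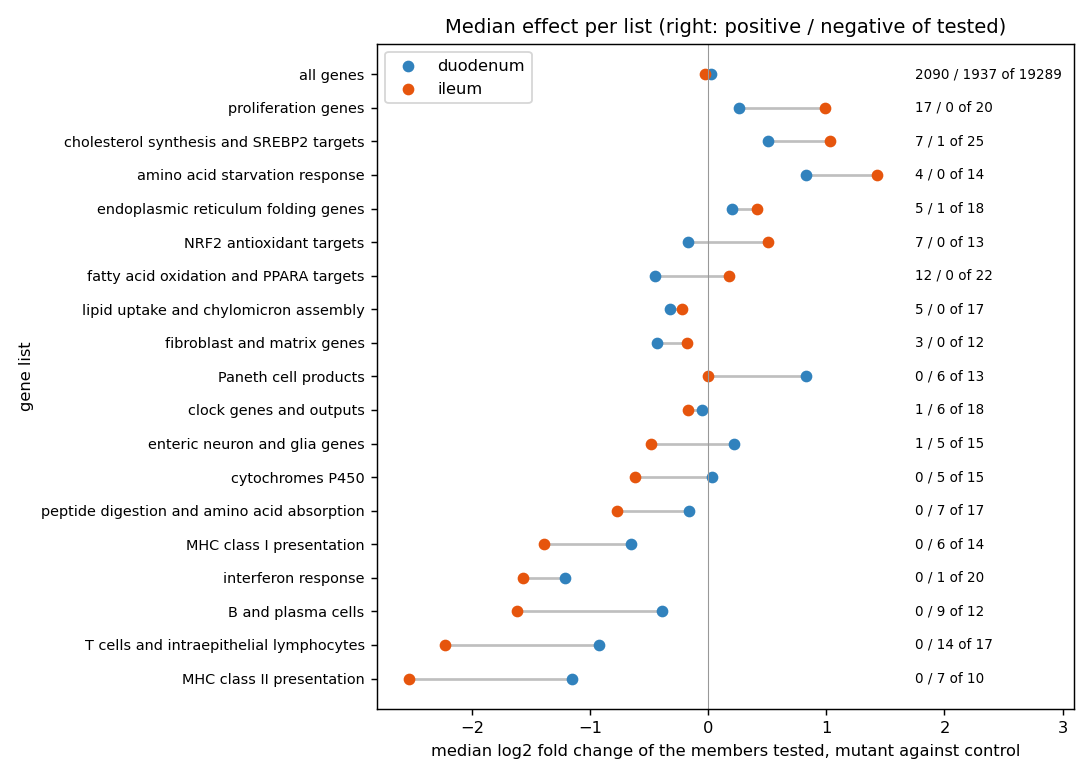
Median log2 fold change, mutant against control (x axis), of the tested members of 18 gene lists and of all genes (y axis), blue for the duodenum and orange for the ileum; the numbers at the right are members with a positive and with a negative interaction of those tested. The duodenum and ileum medians lie on opposite sides of 0 for fatty acid oxidation (-0.45 and 0.18) and NRF2 targets (-0.17 and 0.51). They do so in the reverse order for enteric neuron and glia genes (0.22 and -0.48), cytochromes P450 (0.03 and -0.62) and all genes (0.02 and -0.03).

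Fatty acid oxidation genes had lower estimates in mutant duodenum and not in mutant ileum. Of 22 tested targets of PPARA, the nuclear receptor that switches on fat burning, 12 had a positive and 0 a negative interaction (median 0.67), 5 fell in the duodenum, and in the ileum 2 rose and 1 fell. Without the mouse block 6 were called, without control mice C134 and C154 there were 7, and with the exocrine covariate 3. Cpt2, which completes the import of fatty acids into mitochondria, fell in the duodenum from 220, 261, 271 and 274 CPM to 116, 135, 155 and 173 CPM (-0.81 ± 0.14). It overlapped in the ileum at 107 to 147 and 110 to 169 CPM (0.16, 95% interval -0.14 to 0.47), and the interaction difference was 0.96 ± 0.14 (adjusted p = 0.0018).

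Acadl, the long-chain acyl-CoA dehydrogenase, had its tissue call in the ileum. It rose in the ileum from 105, 132, 140 and 150.5 CPM to 164, 252, 261 and 272 CPM (0.88 ± 0.16), while the duodenum held 232 to 416 CPM in controls and 165 to 278 CPM in mutants (-0.47, 95% interval -0.93 to -0.01, adjusted p = 0.16). Its interaction difference was 1.32 ± 0.23 (adjusted p = 0.0044). In the list of lipid uptake and chylomicron assembly, 5 of 17 genes had a positive interaction, all 5 without a call in either tissue, and 0 were called without the mouse block. The largest was that of Fabp1, a cytosolic fatty acid carrier (1.12 ± 0.28, adjusted p = 0.02). Its call was lost without mouse C134 or C151, without control mice C134 and C154 and without the mouse block. It was also lost with limma-voom, without the low count filter and with the exocrine covariate.

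Targets of NRF2, the factor that induces antioxidant enzymes, had 7 positive and 0 negative interactions among 13 (median 0.67), with 6 rises in the ileum and 0 in the duodenum. Without the mouse block 2 were called and with the exocrine covariate 2. Txnrd1, thioredoxin reductase, rose in the ileum from 210, 225, 237 and 254 CPM to 344, 374, 398 and 462 CPM (0.80 ± 0.11). The duodenum groups overlapped at 395 to 572 and 326 to 517 CPM (-0.17, 95% interval -0.54 to 0.21), and the interaction difference was 0.95 ± 0.17 (adjusted p = 0.0041). Pgd, an NADPH-producing enzyme of the pentose phosphate pathway, rose in the ileum from 184 to 220 CPM to 278 to 457 CPM (0.84 ± 0.13, adjusted p = 0.0018).

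Cholesterol synthesis genes and SREBP2 targets rose in both, 10 of 25 in the duodenum and 19 in the ileum, and 7 had a positive and 1 a negative interaction (2 positive without the mouse block, 4 without mouse C151). Mvd, an enzyme of the mevalonate pathway, had 6.15 to 11.2 CPM in control and 8.48 to 13.3 CPM in mutant duodenum and rose in the ileum from 8.83 to 12.2 CPM to 22.5 to 35.02 CPM (interaction difference 1.01 ± 0.18, adjusted p = 0.0042). Of the amino acid starvation genes, 10 of 14 rose in the ileum and 0 in the duodenum, where 1 fell, and 4 had a positive interaction. That list's regulator Atf4 was at 46.2, 49.4, 49.5 and 71.3 CPM in control and 62.4, 89.3, 99.7 and 190 CPM in mutant ileum (1.05 ± 0.33), and overlapped in the duodenum at 64.5 to 104 and 44.3 to 113 CPM (-0.06, 95% interval -0.75 to 0.64). Its interaction difference of 1.07 ± 0.22 (adjusted p = 0.0098) had an adjusted p of 0.15 without the mouse block and of 0.076 without control mice C134 and C154. The call was also lost with limma-voom and with the exocrine covariate. Endoplasmic reticulum folding genes had 5 positive and 1 negative interaction among 18, and 0 positive without the mouse block.

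All 17 listed genes of T cells and intraepithelial lymphocytes fell in mutant ileum and 6 fell in the duodenum, with medians of -2.23 and -0.92, and 14 had a negative and 0 a positive interaction (median -1.27). Their summed level was 88.2 to 139 CPM in control and 20.4 to 38.7 CPM in mutant ileum, with no overlap, and 214 to 394 and 101 to 234 CPM in the duodenum, where they overlapped. The count was 9 without mouse C133, C134, M136 or M167, 8 without mouse C154, 6 without the mouse block, 1 with the exocrine covariate and 3 without control mice C134 and C154.

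Cd8a, the co-receptor chain of cytotoxic T cells, fell in the ileum from 4.96, 5.96, 6.89 and 7.65 CPM to 0.60, 0.80, 0.94 and 1.71 CPM (-2.62 ± 0.30). In the duodenum it stood at 13.0, 14.2, 19.2 and 21.8 CPM in controls and 5.82, 7.41, 11.5 and 12.4 CPM in mutants (-0.86, 95% interval -1.44 to -0.28, adjusted p = 0.068). The groups were apart in both tissues and the interaction difference was -1.82 ± 0.25 (adjusted p = 0.0014). Cd3e, a chain of the T cell receptor complex, had an interaction difference of -1.60 ± 0.26 (adjusted p = 0.0027).

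B and plasma cell genes had 9 negative and 0 positive interactions among 12, with 10 falls in the ileum and 0 in the duodenum (2 negative without the mouse block, 5 without mouse C154). Jchain, which joins the subunits of secreted immunoglobulin A, fell in the ileum from 717, 1030, 1094 and 1172 CPM to 190, 238, 252 and 541 CPM (-1.69 ± 0.34). In the duodenum 1124 to 1443 CPM in controls overlapped 688 to 1162 CPM in mutants (-0.41, 95% interval -0.82 to 0.00), and the interaction difference was -1.38 ± 0.22 (adjusted p = 0.0023). Without control mice C134 and C154, the pair with the most follicle transcripts in the ileum, 4 members were called. Of 12 tested lymphoid follicle and M cell genes, 7 fell in the ileum and 0 in the duodenum (medians -3.08 and -0.62), and 3 had a negative interaction. Their sum was 37.6 to 104 CPM in mutant ileum, a range that also held control mice C133 and C151 in the ileum, and 83.5 to 285.8 CPM in control and 270.4 to 4922 CPM in mutant duodenum, where it includes Gp2, a gene of the exocrine pancreas too. The part of follicles in the lymphocyte results was not tested.

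MHC class II genes, which present peptides to helper T cells, fell in both tissues, 8 of 10 in the duodenum and 10 in the ileum, with medians of -1.15 and -2.53. A negative interaction was called for 7 of the 10 (median -1.28). Summed levels were 1437 to 1864 CPM in control and 707 to 836 CPM in mutant duodenum, against 1097 to 2763 CPM and 261 to 453 CPM in the ileum. Genes of macrophages and dendritic cells, which carry class II, moved with them: 9 of 15 fell in the duodenum and 11 in the ileum, with 1 rise in each, and their sum was 405 to 481 CPM in control and 272 to 338 CPM in mutant duodenum, and 257 to 311 and 174 to 220 CPM in the ileum, with no overlap in either. That list had 1 positive and 0 negative interactions, and its part in the class II result was not tested. Leaving out mouse M136, M167 or M177 left 4 of the 7 calls, leaving out control mice C134 and C154 left 2, mutant mice M167 and M177 left 1, and the exocrine covariate left 1.

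Ciita, the master switch of class II transcription, fell from 21.3, 22.7, 26.3 and 32.9 CPM to 10.2, 10.98, 11.9 and 13.2 CPM in the duodenum (-1.14 ± 0.15) and from 21.0, 37.1, 41.4 and 45.5 CPM to 5.26, 6.43, 6.43 and 8.09 CPM in the ileum (-2.44 ± 0.24). No groups overlapped, and the interaction difference was -1.28 ± 0.18 (adjusted p = 0.0014). H2-Eb1, a class II beta chain, fell from 183 to 220 CPM to 83.1 to 99.2 CPM in the duodenum and from 116 to 254 CPM to 30.6 to 56.0 CPM in the ileum. Its interaction difference of -1.13 ± 0.25 (adjusted p = 0.015) had an adjusted p of 0.095 without control mice C134 and C154. The call was also lost without the low count filter and without mutant mice M167 and M177. The exocrine covariate removed it too. MHC class I presentation genes fell in both tissues as well, 8 of 14 in the duodenum and 13 in the ileum, with 6 negative interactions (3 without the mouse block, 3 without mouse C133, C134, C154, M136 or M167 and 10 without mouse C151).

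Interferon response genes fell in both tissues with 1 interaction call. Of 20 listed genes, 9 fell in the duodenum and 18 in the ileum (medians -1.21 and -1.57), and a single gene, Irf9, had a negative interaction. Its call was lost without mouse C133, C134, C154, M136 or M167. It was also lost without the mouse block, with DESeq2 scaling, without either pair of mice and with the exocrine covariate. Ifit1, an interferon-induced RNA-binding protein, was at 65.6, 67.5, 127 and 167.9 CPM in control and 8.83, 25.3, 37.2 and 41.1 CPM in mutant duodenum, and at 10.5, 10.8, 18.3 and 25.0 CPM and 1.25, 1.302, 3.07 and 4.40 CPM in the ileum. The groups were apart in both tissues, with log2 fold changes of -1.92 (95% interval -3.21 to -0.63, adjusted p = 0.074) and -2.66 ± 0.49. The interaction difference was -0.77 (95% interval -1.45 to -0.09, adjusted p = 0.1), a call that was made without mouse M167. Stat2, chosen after its values were seen, a signal carrier of type I interferon, fell alike in both tissues (-1.39 ± 0.12 and -1.05 ± 0.16, difference 0.29, 95% interval -0.07 to 0.66).

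Promoter motifs were also searched in the class II and interferon lists. A link between the motifs and the interactions was not tested. CCAAT, part of the class II promoter module, was found in 7 of 7 class II genes with a promoter in the table. It was found in 6 of 15 interferon genes (40%), in 39.7% of all tested genes and in 94.1% of the proliferation genes. The interferon response element, searched on both strands as GAAA repeated after a gap of 2 bases, was found in 9 of 15 interferon genes (60%), in 0 of 7 class II genes and in 3.35% of 12655 tested genes. The promoters of H2-Eb1 (chr17:34305617-34305866, plus strand) and Ifit1 (chr19:34640639-34640888, plus strand) stand for the lists; capitals mark CCAAT in the first and the interferon element in the second, and the sequences are from RefSeq on GRCm38.p6.
H2-Eb1: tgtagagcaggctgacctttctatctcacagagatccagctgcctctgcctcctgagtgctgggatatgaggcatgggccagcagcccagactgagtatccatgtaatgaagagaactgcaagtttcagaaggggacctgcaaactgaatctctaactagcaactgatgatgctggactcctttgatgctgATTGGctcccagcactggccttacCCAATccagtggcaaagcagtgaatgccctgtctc
Ifit1: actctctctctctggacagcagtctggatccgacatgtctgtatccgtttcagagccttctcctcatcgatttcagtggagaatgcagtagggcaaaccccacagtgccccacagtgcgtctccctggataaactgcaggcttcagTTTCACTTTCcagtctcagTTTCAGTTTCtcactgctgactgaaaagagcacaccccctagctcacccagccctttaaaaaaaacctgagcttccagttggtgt

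**Figure D5:**
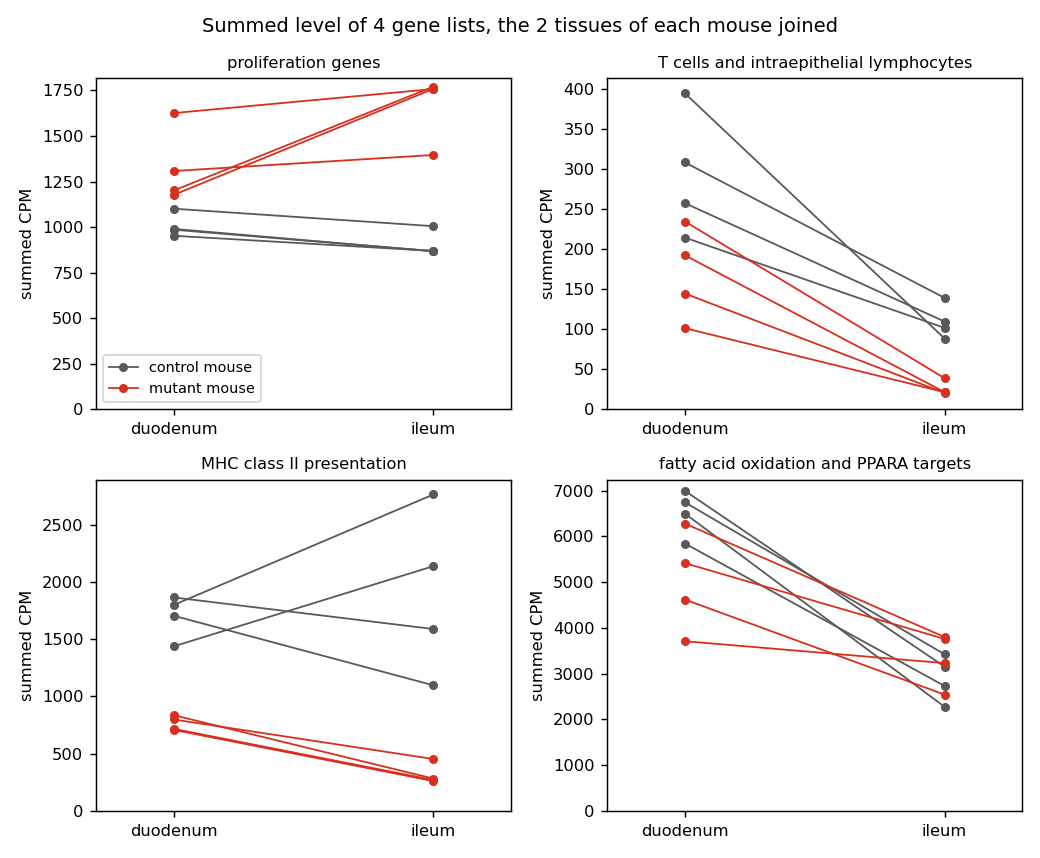
Summed CPM (y axis, from 0) of the members of 4 gene lists in the duodenum and the ileum (x axis), the libraries of each mouse joined by a line, grey for the 4 controls and red for the 4 mutants. The lines of mutant mice lie above those of controls for proliferation genes and below them for MHC class II genes, and the ileum sums of class II are 261 to 453 CPM in mutants.

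Paneth cell and Reg genes included several duodenum-only rises. Of 13 Paneth cell products tested, 7 rose in the duodenum, 1 rose and 1 fell in the ileum, and 6 had a negative and 0 a positive interaction (3 without the mouse block, 3 without mouse C134, M167 or M177 and 2 without mouse C151). Defa22, an alpha-defensin whose reads may be shared with close copies, was at 0.76, 1.05, 1.48 and 1.995 CPM in control and 6.30, 7.11, 13.3 and 13.95 CPM in mutant duodenum (2.95 ± 0.36). The ileum held 286 to 467 CPM in controls and 182 to 486 CPM in mutants, which overlapped (0.00, 95% interval -0.69 to 0.69), and the interaction difference was -3.02 ± 0.35 (adjusted p = 0.0018).

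Reg3b, an antibacterial lectin, rose in the duodenum from 31.6, 38.5, 62.1 and 180 CPM to 960, 1188, 2069 and 3677 CPM (4.67 ± 0.77). Mutant duodenum thereby reached the range of the ileum, where controls held 811, 1110, 2548 and 3895 CPM and mutants 1575, 2188, 2718 and 3454 CPM (0.27, 95% interval -0.95 to 1.49). The interaction difference was -4.33 ± 0.59 (adjusted p = 0.004). Exocrine pancreas transcripts also differed in these duodenum libraries, with sums of 74.8 to 35290 CPM in controls and 10080 to 223800 CPM in mutants. The part of pancreas transcripts in the Reg values was not tested. Reg4, a lectin of secretory cells, had the reverse sign: it fell in the duodenum from 114, 127, 150 and 161 CPM to 21.4, 22.1, 32.3 and 49.4 CPM (-2.12 ± 0.28), while the ileum held 72.2, 82.3, 119 and 134.3 CPM in controls and 106, 132, 250 and 329 CPM in mutants (1.04, 95% interval 0.12 to 1.95, adjusted p = 0.079). Its interaction difference was 3.1 ± 0.56 (adjusted p = 0.013). The exocrine covariate removed this call, as did leaving out control mice C134 and C154.

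Of 15 goblet cell genes, 3 had a positive and 2 a negative interaction, beside 10.8% and 10.0% of all genes, from which nothing is read about the list. Agr2, a chaperone of mucin folding, rose in the ileum from 192, 204, 207 and 210 CPM to 411, 448, 535 and 607 CPM and overlapped in the duodenum at 146 to 180 and 135 to 258 CPM (interaction difference 1.01 ± 0.19, adjusted p = 0.0047). Fcgbp, a component of mucus, fell in the ileum from 6666 to 7653 CPM to 3258 to 5147 CPM, with 3498 to 7966 and 5978 to 8835 CPM in the duodenum (-1.12 ± 0.27, adjusted p = 0.013).

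Genes of peptide digestion were lower in the ileum. Of 17 genes of peptide digestion and amino acid absorption, 11 fell in the ileum and 0 in the duodenum, and 7 had a negative interaction (median -0.56; 1 without the mouse block, 4 without mouse C151, C154, M136 or M168 and 3 without mouse M167). Mep1a, a subunit of the brush border protease meprin, fell in the ileum from 1133, 1180, 1455 and 1625 CPM to 284, 395, 423 and 425 CPM (-1.79 ± 0.17). Its duodenum levels of 91.6 to 142 and 50.9 to 165 CPM overlapped (-0.02, 95% interval -0.76 to 0.72). The interaction difference was -1.70 ± 0.34 (adjusted p = 0.0098). Entering the exocrine covariate removed this call, as did leaving out control mice C134 and C154.

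G6pc, the catalytic subunit of glucose-6-phosphatase, which releases glucose, had estimates on either side of 0. The duodenum held 66.2, 80.4, 120 and 137 CPM in controls and 125, 130, 235 and 443 CPM in mutants (1.23, 95% interval 0.12 to 2.33, adjusted p = 0.14). In the ileum it fell from 16.5, 25.7, 38.1 and 46.6 CPM to 6.88, 9.31, 9.31 and 10.96 CPM (-1.77 ± 0.32), and the interaction difference was -2.78 ± 0.38 (adjusted p = 0.004). Among 15 cytochromes P450, 5 had a negative and 0 a positive interaction (1 without the mouse block), in contrast to their electron donor Por above. Cyp3a25, a drug-metabolising member, was at 37.3 to 73.2 CPM in control and 7.91 to 16.7 CPM in mutant ileum, and at 195 to 284 and 82.9 to 208 CPM in the duodenum (-1.48 ± 0.24, adjusted p = 0.0039).

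The clock genes Nfil3 and Cry2 rose in the duodenum alone. Nfil3, a repressor of clock output genes, rose in the duodenum from 2.98, 4.64, 4.94 and 5.81 CPM to 10.4, 13.0, 16.7 and 22.6 CPM (1.79 ± 0.27). Ileum libraries held 6.72 to 10.9 CPM in controls and 7.13 to 11.5 CPM in mutants (0.17, 95% interval -0.26 to 0.60), and the interaction difference was -1.60 ± 0.20 (adjusted p = 0.0011). Cry2, a repressor of the clock, rose by 0.71 ± 0.16 in the duodenum (-0.74 ± 0.12, adjusted p = 0.0029). Of 18 clock genes, 6 had a negative and 1 a positive interaction (3 negative without the mouse block or without mouse C151).

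Genes of the gut wall added a few tissue differences. Col3a1, a fibrillar collagen of fibroblasts, fell in the duodenum from 163, 190, 213 and 244 CPM to 67.9, 79.2, 95.3 and 97.0 CPM (-1.24 ± 0.15), and overlapped in the ileum at 244 to 388 and 202 to 440 CPM (-0.11, 95% interval -0.66 to 0.45). Its interaction difference was 1.07 ± 0.22 (adjusted p = 0.0086). Leaving out control mice C134 and C154 removed this call, and so did the exocrine covariate. Among 12 fibroblast and matrix genes, 3 had a positive and 0 a negative interaction, and the list's sum was 1082 to 1482 CPM in control and 684 to 1000 CPM in mutant duodenum. Of 15 neuron and glia genes, 5 had a negative and 1 a positive interaction (median -0.66), and the negative calls numbered 0 without the mouse block or without mouse C151 or M167, 1 without mouse C133 or M136, 2 without mouse C154 or M177 and 3 without mouse C134. Vip, the gene of a relaxing neuropeptide, stood at 13.1, 15.8, 16.6 and 17.6 CPM in control and 5.34, 6.33, 6.59 and 7.67 CPM in mutant ileum, with no overlap, and at 11.7 to 19.2 and 8.54 to 13.4 CPM in the duodenum (-0.47, 95% interval -0.89 to -0.05, adjusted p = 0.13). It fell in the ileum (-1.25 ± 0.14), and its interaction difference was -0.80 ± 0.21 (adjusted p = 0.022), a call lost without the mouse block and without mouse C151, C154, M167 or M177, without either pair of mice and with the covariate. Nos1, the neuronal nitric oxide synthase (-0.92 ± 0.25, adjusted p = 0.023), and Elavl4, a neuronal RNA-binding protein (-0.98 ± 0.29, adjusted p = 0.034), also lost their calls without the block and without mouse C133, C151, M136 or M167, and Elavl4 without mouse C134 too. Both calls were lost with limma-voom as well. The covariate removed that of Elavl4, as did leaving out mutant mice M167 and M177. The positive one was Ret, a receptor tyrosine kinase of enteric neurons, which fell in the duodenum (-0.70 ± 0.18) and had an ileum estimate of 0.40 (95% interval 0.06 to 0.73, adjusted p = 0.068; difference 1.07 ± 0.21, adjusted p = 0.0062).

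Map2 stood for the genes that passed the interaction test alone. This microtubule protein gene was at 4.04, 4.09, 6.33 and 6.53 CPM in control and 5.97, 8.999, 18.3 and 23.0 CPM in mutant duodenum (1.44, 95% interval 0.44 to 2.43, adjusted p = 0.076). In the ileum controls held 6.78, 8.07, 11.3 and 12.2 CPM and mutants 3.55, 4.22, 4.90 and 8.83 CPM (-0.79, 95% interval -1.46 to -0.12, adjusted p = 0.067). The groups overlapped in both tissues, but the ileum-minus-duodenum difference within a mouse was 0.72 to 0.99 in the 4 controls and -1.89 to -0.74 in the 4 mutants on the log2 scale (interaction difference -2.16 ± 0.22, adjusted p = 0.00048).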

How the data were processed

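Total RNA of duodenum and ileum from 8 mice was sequenced. The authors deposited whole-number read counts per gene, not normalized. STAR 2.5.3a, HTSeq 0.6.1p1, Bowtie2 2.2.8, cutadapt 1.10 and the build mm39 are named, without roles, per the submitters' processing notes. Whether counting used the strand, and which annotation release it used, is not given in the sources used here. Of 55359 gene identifiers 52083 matched a symbol, the other 3276 held 1.02% of the counts, and 21034 had no count.

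Genes passing edgeR's low count filter were tested with edgeR 4.0.16 in R 4.3.3 (TMM scaling, quasi-likelihood test, Benjamini-Hochberg adjustment, threshold 0.05). The interaction was fitted over all 16 libraries with the mouse as a block (6 residual degrees of freedom), each tissue's effect on its 8 libraries alone. Both tissues came from each mouse, and deviations from the group means correlated between the tissues of a mouse by 0.22 to 0.48, against 0.09 to 0.26 with the best other mouse; for mouse M168 another mouse was the closer one (0.26 against 0.25). Alternatives used limma 3.58.1, DESeq2 1.42.0, other scaling and filters, each mouse or pair of mice left out, and a covariate. The p-values measure the spread between these mice. CPM values are TMM-scaled, counting intervals are 95% and cover counting error only, and the smallest p an exact permutation test of 4 against 4 mice can give is 0.0286. The scripts were tested on simulated data.

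Named genes are Neurog3, Gip, Cck, Gcg, Pyy and Nts, then, among interaction calls with a mean of at least 1 CPM in a group, the 12 smallest p of each sign, up to 15 opposite genes and the 8 smallest p of each one-tissue class and direction. Up to 4 tested members of each list with the smallest interaction p were added, whether or not they had a call or 1 CPM. Gene models without a proper name and receptor segments were counted but not named. The comparison, the lists and the rules were chosen with earlier results of these data known. Promoters are RefSeq sequences on GRCm38.p6, a build other than that of the counts. A few gene results are not reported here.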

Additional observations from a re-analysis of the deposited data

Results flagged for a closer look

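An effect that differed between the tissues by the interaction test was called for 4027 genes, of which 28 had opposite directions, 293 were called in the duodenum only and 2295 in the ileum only; the report gives their values.

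For 40 genes the 4 libraries of each of the 4 groups were examined. The highest or lowest library stood apart from the other 3 of its group by Dixon's criterion in 11 of 160 groups. Chance alone gives about 1 in 20 groups, so the cases are descriptions. Neurog3 was at 0.0236 CPM in the duodenum of mutant mouse M167 and at 0.0164 CPM in the ileum of mutant mouse M136, 1 read each, with 0 in the others. A single read against 0 always meets the criterion, so nothing is read from these cases. Neurog3 was also at 0.56 CPM in the ileum of control mouse C154 against 0.95 to 1.03 CPM. Mutant mouse M167 had 83.1 CPM of Il1rn in the ileum (32.7 to 39.8 in the others), 3.39 CPM of Sst in the ileum (3.68 to 3.73) and 30.4 CPM of Sae1 in the duodenum (44.2 to 46.2). Control mouse C134 had 43.2 CPM of Me1 (21.8 to 23.0) and 71.3 CPM of Atf4 (46.2 to 49.5) in the ileum. Mutant mouse M136 had 148 CPM of Prlr (121 to 122) in the ileum, and mutant mouse M168 had 152 CPM of Tgfbi (125 to 126) and 56 CPM of H2-Eb1 (30.6 to 34.2) there.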

How the results depend on the processing

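Without the replicate block, which pairs the tissues of a mouse, 938 positive and 796 negative interactions were called, 180 in the duodenum-only and 1170 in the ileum-only class, and 69 of the 176 called genes of the naming rule lost their call. One fit over all 16 libraries with no replicate block gave 1202 higher genes in the duodenum. DESeq2 called 113 opposite and 670 duodenum-only genes, with 1376 higher and 1579 lower in the duodenum. Leaving out each mouse in turn gave 1055 to 2300 positive and 1030 to 2183 negative interactions, 4 to 50 opposite, 65 to 643 duodenum-only and 1278 to 2119 ileum-only genes, and 124 to 1025 higher and 352 to 1114 lower genes in the duodenum. Ileum calls ranged from 2806 to 4025 higher and 1864 to 3116 lower. Without control mice C134 and C154 there were 718 positive and 772 negative interactions, 0 opposite, 27 duodenum-only and 789 ileum-only genes. Without mutant mice M167 and M177 there were 1337 positive, 839 negative, 3 opposite and 50 duodenum-only. The exocrine covariate gave 251 positive and 198 negative. The cause was not tested, beyond the fewer mice of the left-out settings. The positive share of the called interactions, 51.9%, was 46.2% with a filter of 1 CPM and 61.4% without mutant mice M167 and M177. Of the 176 genes, 56 were called in all 18 alternatives and 0 changed sign, in fits that shared most or all libraries. Members of the lists and the opposite genes were followed through the alternatives by a choice made after seeing the data. Near-zero hormone genes limit the interaction: Neurog3 has a single mutant read per tissue.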

Other observations

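Several large families outside the lists had interactions in 1 direction. They were picked by symbol after their values were seen, so their counts are descriptions, beside 10.8% positive and 10.0% negative among all genes. Of 77 mitochondrial ribosomal protein genes, which build the ribosome of the organelle, 67 had a positive and 0 a negative interaction (median 0.61), and 66 rose in mutant ileum while 1 fell in the duodenum. Their summed level was 1810, 1900, 1950 and 2110 CPM in control and 1680, 1710, 2040 and 2120 CPM in mutant duodenum, which overlapped. In the ileum it was 1070, 1140, 1190 and 1210 CPM in controls and 1410, 1790, 1820 and 1870 CPM in mutants, which did not. The count was 41 without mouse C151, 43 without mouse C134, 43 without the mouse block, 6 with the exocrine covariate and 25 without control mice C134 and C154.

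Of 38 proteasome subunit genes, 34 had a positive and 1 a negative interaction (median 0.60; 21 positive without control mice C134 and C154, 9 with the covariate), and 15 of 23 mitochondrial import genes had a positive one (9 without mouse C151, 7 without the mouse block, 5 without mice C134 and C154 and 2 with the covariate). Complex I of the respiratory chain had 27 positive and 0 negative among 47 (15 to 19 without mouse C133, C134, C151, C154, M136, M168 or M177, 11 without the mouse block, 10 without mice C134 and C154 and 4 with the covariate). The 80 cytosolic ribosomal protein genes had 2 positive and 0 negative interactions (median 0.00), with 14 rises in the duodenum and 32 in the ileum; without mutant mice M167 and M177 there were 15 positive. The 7 tested protein genes encoded in the mitochondrial genome had the reverse sign, with 5 negative interactions (median -0.82; 1 without mouse C151, M136 or M167, 3 without mouse C134 or C154, 1 without the mouse block, and 0 with the covariate, without mice M167 and M177 or without mice C134 and C154). The median of the longest transcripts was 1884 bases for the mitochondrial and 1100 bases for the cytosolic ribosomal protein genes; the part of length was not tested.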
